A study of Mus musculus with 24 samples.

Results

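Alcohol dehydrogenases (Adh), aldehyde dehydrogenases (Aldh) and aldo-keto reductases (Akr) are the enzymes that pass alcohols, aldehydes and ketones into one another. The array carried 41 genes of these 3 families among 27962 gene names, found as probes whose gene name is Adh, Aldh or Akr followed by a digit: 6 Adh, 20 Aldh and 15 Akr genes. They were measured by 58 probes, and the probe of highest mean intensity stood for each gene. The arrays compared 12 female C57BL/6 mice aged 12 weeks, each of which gave whole colon and whole liver, and all of which were born to dams given a high-fat feed with little selenium and folate (HF-Low) from 7 days before mating to the end of lactation. From weaning at about 28 days, 6 mice stayed on the HF-Low diet (HF-Low-Low) and 6 received a high-fat feed that held enough of both (HF-Low-Suf). The litters of the mice are not given in the sources used here, and the tests treated the mice as independent.

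Adh enzymes oxidise alcohols such as ethanol and retinol to aldehydes, Aldh enzymes oxidise aldehydes to acids, and most Akr enzymes reduce aldehydes and ketones, sugars and steroids among them. The liver is known as the main site of ethanol oxidation, of the breakdown of several amino acids and of bile acid synthesis, each of which uses members of these families. Retinoic acid is made from retinol by the same kinds of steps, an alcohol dehydrogenation followed by an aldehyde dehydrogenation. A folate step is included too, since Aldh1l1 and Aldh1l2 oxidise formyl-tetrahydrofolate.

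All values are log2 ratios of the mouse's RNA (Cy3) to a common reference pool (Cy5) on the same array, and a difference of 1 is a 2-fold difference. The dyes were not swapped. Over the background, the median spot in Cy3 was 3.85 to 7.10 times brighter on the 12 colon arrays and 3.75 to 5.69 times brighter on the 12 liver arrays. Hepatocyte markers were higher in liver for 10 of 11 genes, and colon epithelium and smooth muscle markers were higher in colon for 12 of 12 and 9 of 9. Of the 41 genes, 37 had Cy3 signals well above background on 6 or more of the 12 arrays of 1 tissue or both, 25 on all 24 arrays and 2 on none (Aldh3a1 and the main probe of Aldh1l2), and 0 were saturated. In whole tissue, more cells of a type and more RNA per cell cannot be told apart.

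Between the tissues of the same mice, 21 of the 41 genes were higher in liver and 9 higher in colon at an adjusted P below 0.05 and a fold above 1.5, and 11 were not called. Over the main probes of all gene names, 12.3% were higher in liver and 13.9% higher in colon. Of the 37 members above background on 6 or more arrays of a tissue, 20 were higher in liver and 9 in colon, and of the 13926 of 27962 gene names that were so, 21.3% and 26.5%, so that the members' share towards colon lay near that of other detected genes. The median difference of the 41 genes, liver minus colon, was 0.94 on the log2 scale (0.55 with median centring in place of loess), against 0.02 over all probes. The 12 livers and the 12 colons did not overlap for 21 of the 41 genes, against 15.0% of all gene names. By family, the calls for liver, colon and neither numbered 4, 0 and 2 for Adh, 11, 6 and 3 for Aldh, and 6, 3 and 6 for Akr. Within mice, 19 genes were higher in liver in all 12 animals and 5 higher in colon in all 12. When all 12 differences share a sign, the two-sided exact permutation test over mice always gives its smallest possible p of 0.000488, so this p adds nothing to the count. Over all gene names, 10.7% were higher in liver and 12.2% higher in colon in all 12. The fitted difference exceeded 3 on the log2 scale, or 8-fold, for 8 genes, and all of these were higher in liver. The share of all gene names beyond 8-fold is not given here, so whether this count is unusual was not tested. Of the 8, Akr1d1 came to 2.27 under median centring and Adh1 to 2.98 with the processed signals. A dimmer probe each of Adh1, Akr1b3, Aldh1a3, Aldh5a1 and Aldh7a1, each well above background on 2 or fewer of the 24 arrays, was not called, unlike the main probes of these genes.

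**Figure D1:**
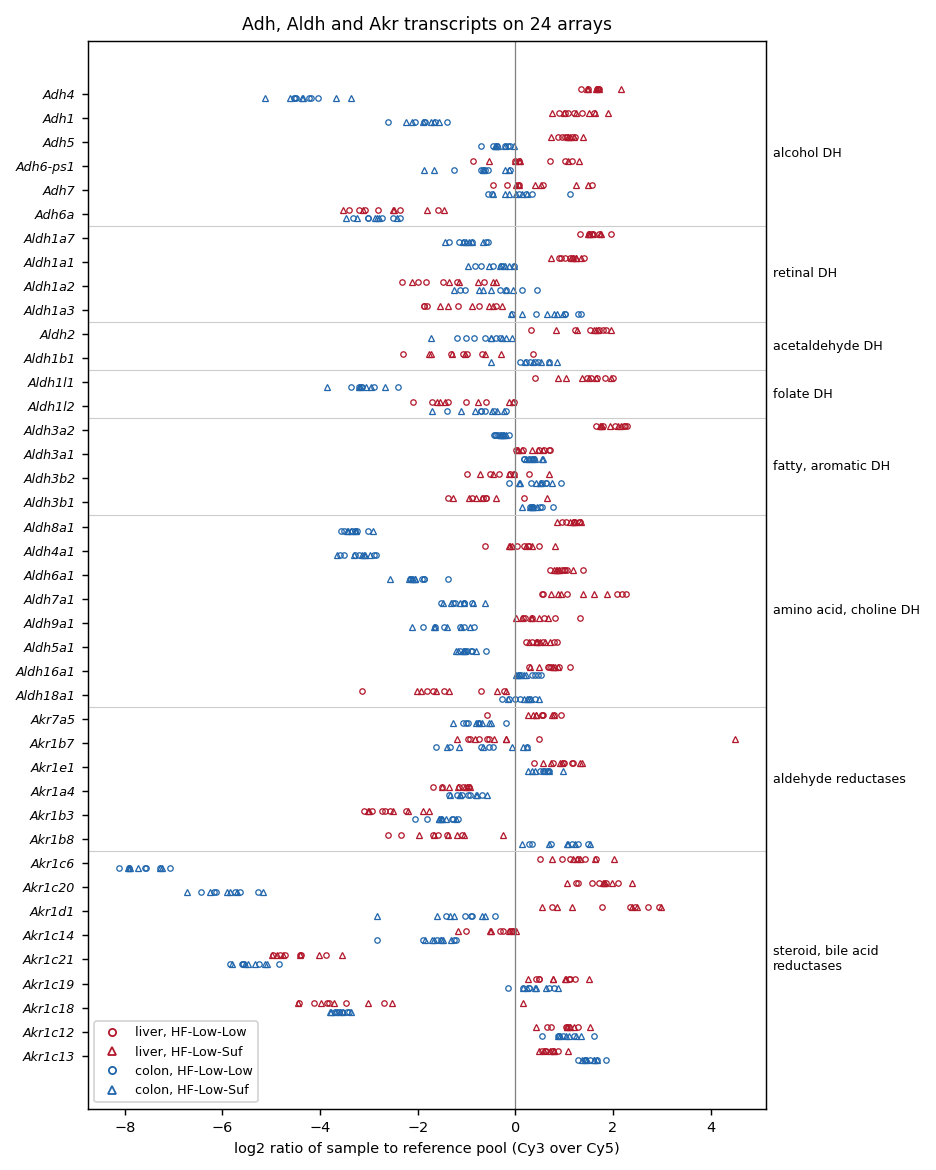
Log2 ratio of sample to reference pool (horizontal axis) of each of the 41 genes on the 24 arrays, with genes in rows by role. Red marks are livers and blue marks colons, circles are HF-Low-Low and triangles HF-Low-Suf, and DH stands for dehydrogenase. The 2 tissues lie furthest apart for Akr1c6, Akr1c20 and Adh4, circles and triangles are mixed throughout, and 1 liver lies alone at 4.50 for Akr1b7.

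The alcohol dehydrogenases that were called were all higher in liver. Adh4, a class II enzyme that oxidises ethanol and retinol, had log2 ratios of 1.34 to 2.16 in the livers (median 1.67) and -5.12 to -3.37 in the colons (median -4.36), a fitted difference of 5.94 ± 0.13 (SE, n = 12 mice, limma adjusted P = 2.28e-23). All 12 liver arrays but 1 of 12 colon arrays had its probe well above background. With each colon array counted at no less than its lowest signal well above background, Adh4 was at least 52.1-fold higher in liver (main processing). That bound is 5.70 on the log2 scale, and the Cy3 channel alone gave a smaller difference of 5.30. For Adh1, the class I enzyme that oxidises most ethanol, the livers ran from 0.75 to 1.89 (median 1.22) and the colons from -2.61 to -1.40 (median -1.86). That is a separation without overlap of 3.15 ± 0.13 or 8.90-fold (adjusted P = 3.08e-17), with both tissues well above background on every array. Another bright probe of Adh1 gave 3.48, and its last one, well above background on 0 of 24 arrays, gave 0.03. Adh5, the glutathione-dependent formaldehyde dehydrogenase found in most cells, differed less, with livers at 0.73 to 1.39 and colons at -0.71 to -0.03, a difference of 1.39 ± 0.08 (adjusted P = 8.09e-14). Adh6-ps1, named as a pseudogene, was higher in liver with overlapping groups. Its probe was well above background on 5 liver arrays and 0 colon arrays, so that it was at least 1.54-fold higher in liver. The class IV enzyme Adh7, known from the lining of the stomach, was well above background on 2 liver and 0 colon arrays and was not called (0.42 ± 0.20, and 0.77 with the processed signals). Adh6a was not called either (0.27 ± 0.20), with livers at -3.53 to -1.45 and colons at -3.46 to -2.37, and its difference changed sign under plain background subtraction, no background correction, the processed signals, median centring and the Cy3 channel alone.

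The 4 genes grouped here as retinaldehyde dehydrogenases split evenly between the tissues. Aldh1a7, a close relative of Aldh1a1, was higher in liver by 2.57 ± 0.09 (adjusted P = 2.08e-18), with livers at 1.32 to 1.95 and colons at -1.44 to -0.56. Aldh1a1, which makes retinoic acid from retinaldehyde, was higher in liver by 1.51 ± 0.11 (adjusted P = 3.14e-12), with livers at 0.74 to 1.40 and colons at -0.96 to -0.02. Both lie next to each other on chromosome 19, at chr19:20343581-20343640 for the Aldh1a1 probe and chr19:20393370-20393429 for the Aldh1a7 probe (mm7). Their relatives Aldh1a3 and Aldh1a2, which make retinoic acid in many epithelia and in mesenchyme, were higher in colon. For Aldh1a3 the livers ran from -1.88 to -0.28 (median -1.03) and the colons from -0.10 to 1.35 (median 0.82), without overlap. Because the probe was well above background on 0 liver and 12 colon arrays, only a bound is given, and Aldh1a3 was at least 3.27-fold higher in colon (adjusted P = 5.72e-09). Aldh1a2 was higher in colon by 0.86 on the log2 scale in the same sense (liver minus colon -0.86 ± 0.19, adjusted P = 0.000697), with overlapping groups and a higher colon in 11 of 12 mice.

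The acetaldehyde pair also went opposite ways. Aldh2, the mitochondrial enzyme that clears acetaldehyde after ethanol, had log2 ratios of 0.32 to 1.95 in the livers (median 1.63) and -1.72 to -0.07 in the colons (median -0.50), with no overlap and a difference of 2.09 ± 0.17 (adjusted P = 5.59e-11). Aldh1b1, the other mitochondrial acetaldehyde dehydrogenase, ran from -2.30 to 0.37 in the livers (median -1.06) and from -0.51 to 0.85 in the colons (median 0.38). It was higher in colon in 11 of 12 mice, by a liver minus colon difference of -1.42 ± 0.20 (adjusted P = 1.52e-06), and the groups overlapped.

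Of the folate enzymes, the cytosolic Aldh1l1 was among the genes furthest apart. Its livers ran from 0.41 to 1.99 (median 1.53) and its colons from -3.85 to -2.40 (median -3.15), a difference of 4.53 ± 0.15 or 23.1-fold (adjusted P = 2.98e-19), with no overlap. The mitochondrial Aldh1l2 was well above background on 0 of 24 arrays with its main probe and on 1 liver and 1 colon array with its other probe, so no fold is given for it (-0.30 ± 0.22, adjusted P = 0.335).

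The fatty and aromatic aldehyde dehydrogenases held 1 gene higher in liver, 2 higher in colon and 1 not called. Aldh3a2, the fatty aldehyde dehydrogenase, had tight groups, with livers at 1.65 to 2.29 and colons at -0.43 to -0.12, a difference of 2.27 ± 0.08 (adjusted P = 7.65e-19). Aldh3b1 and Aldh3b2, which act on lipid-derived aldehydes, were higher in colon, by differences of -1.02 ± 0.16 (adjusted P = 4.31e-06) and -0.65 ± 0.15 (adjusted P = 0.000785), and the tissues overlapped for both. The other probe of Aldh3b2 did not overlap and was well above background on 0 liver and 12 colon arrays, which made it at least 3.24-fold higher in colon (adjusted P = 2.41e-11). The call for the main probe of Aldh3b2 fell below the 1.5-fold threshold when replicate 3 of HF-Low-Suf (-0.54) or replicate 5 of HF-Low-Low (-0.57) was left out. Aldh3a1, known as an abundant protein of the cornea, was above background in neither tissue.

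The 8 genes of amino acid and choline breakdown or synthesis had 6 genes higher in liver, 1 higher in colon and 1 not called. Aldh8a1, which acts in tryptophan breakdown, had livers at 0.86 to 1.33 (median 1.20) and colons at -3.57 to -2.92 (median -3.32), a difference of 4.47 ± 0.08 or 22.1-fold (adjusted P = 1.78e-25). Aldh4a1, of proline breakdown, differed by 3.36 ± 0.12 (adjusted P = 1.16e-18), with livers at -0.62 to 0.82 and colons at -3.66 to -2.85. Aldh6a1, of valine breakdown, differed by 3.00 ± 0.09 (adjusted P = 1.16e-20), with livers at 0.72 to 1.38 and colons at -2.57 to -1.38. None of these 3 overlapped between tissues. Also separate were Aldh7a1 of lysine breakdown (2.47 ± 0.18), Aldh9a1 of carnitine synthesis (1.86 ± 0.14) and Aldh5a1, which oxidises succinic semialdehyde from GABA (1.51 ± 0.08). Aldh18a1 runs the other way in metabolism, since it begins the synthesis of proline, and it was the member of this group higher in colon. Its livers ran from -3.14 to -0.19 and its colons from -0.27 to 0.49, with a higher colon in 12 of 12 mice although the groups overlapped. With 0 liver and 12 colon arrays well above background, it was at least 2.28-fold higher in colon (adjusted P = 3.44e-06). Aldh16a1 differed by 0.49 ± 0.09, which passed the adjusted P (4.80e-05) but not the fold threshold, and it came to 0.066 with the Cy3 channel alone.

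**Figure D2:**
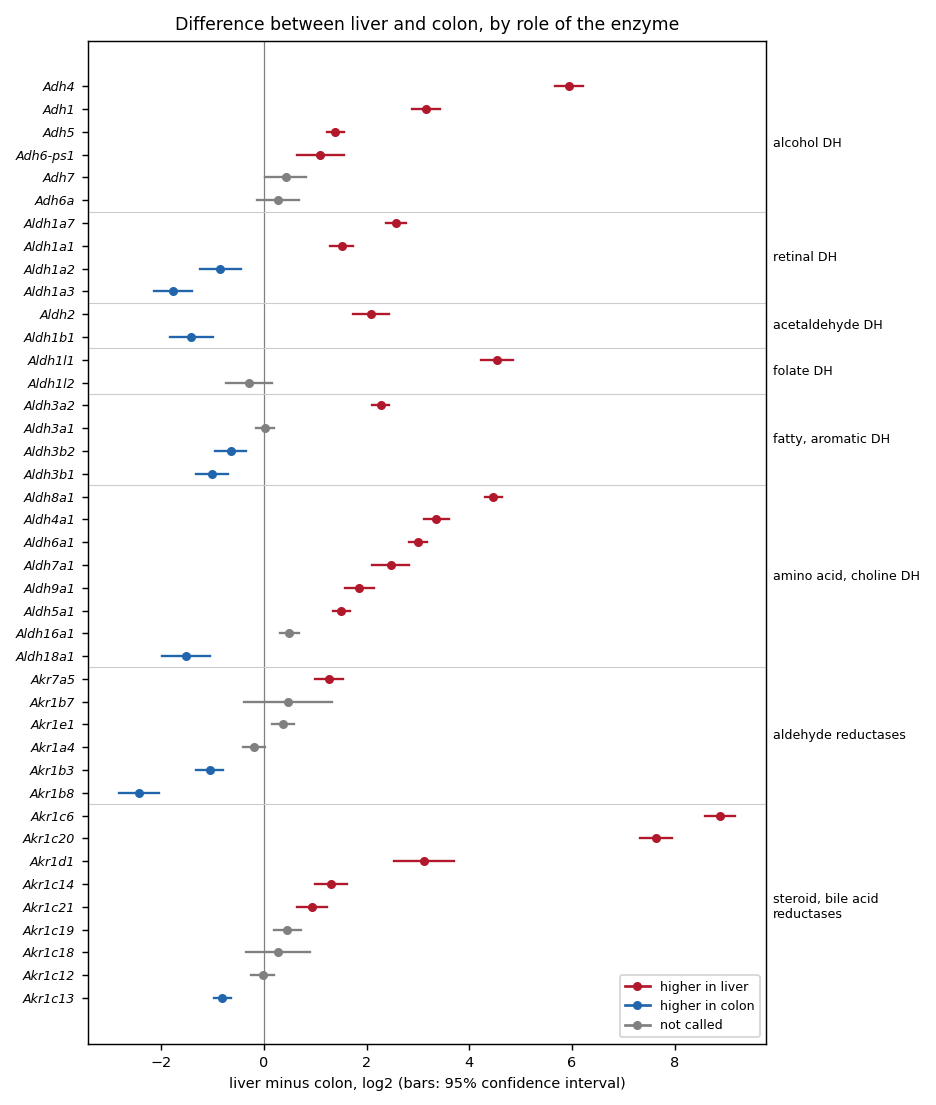
Liver minus colon on the log2 scale (horizontal axis) for each of the 41 genes, by role, with 95% confidence intervals as bars. Red genes were higher in liver (21), blue genes higher in colon (9) and grey genes were not called (11). Fitted values are drawn also for Aldh1a3, Aldh18a1 and Adh6-ps1, dim throughout 1 tissue, and for Adh4, Akr1c6, Akr1c20 and Akr1d1, above background on 1 colon array, whose folds have only a bound. The longest fitted difference is 8.89 for Akr1c6 and the lowest -2.44 for Akr1b8.

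Among the 6 aldehyde and aldose reductases, 1 was higher in liver, 2 higher in colon and 3 not called. Akr1b8, an aldose reductase relative, had the furthest fitted difference towards colon of the 41 genes in the main processing. Its livers ran from -2.60 to -0.25 (median -1.50) and its colons from 0.14 to 1.53 (median 1.07), a difference of -2.44 ± 0.19, so that it was 5.43-fold higher in colon (adjusted P = 2.14e-11) without overlap. With the processed signals Aldh1a3 and Aldh18a1, dim throughout the liver, reached -3.295 and -3.04, and Akr1b8 reached at most -2.855 (median centring). Akr1b3, the aldose reductase that turns glucose into sorbitol, was 2.08-fold higher in colon (-1.06 ± 0.13, adjusted P = 1.06e-07), in all 12 mice but with overlapping groups. Akr7a5, which reduces aflatoxin aldehydes, was higher in liver by 1.26 ± 0.13 (adjusted P = 7.15e-09), with livers at -0.59 to 0.93 and colons at -1.27 to -0.20. Akr1a4 (now Akr1a1), the general aldehyde reductase that also serves vitamin C synthesis in mice, was not called (-0.19 ± 0.10, and -0.48 with the Cy3 channel alone). Akr1e1 (0.37 ± 0.10) passed the adjusted P but not the fold threshold, and its difference was -0.02 under median centring. Akr1b7 is described with the liver that stood apart.

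The hydroxysteroid and bile acid reductases held the widest fitted differences of the 41 genes. Akr1c6, a hydroxysteroid dehydrogenase of mouse liver, had log2 ratios of 0.50 to 2.03 in the livers (median 1.26) and -8.12 to -7.08 in the colons (median -7.66), a fitted difference of 8.89 ± 0.14 (adjusted P = 2.77e-26). Akr1c20 ran from 1.06 to 2.40 in the livers and from -6.73 to -5.16 in the colons, a fitted difference of 7.64 ± 0.15 (adjusted P = 2.63e-24). Both were well above background on 12 liver arrays and 1 colon array, so that the folds have a bound only. In the main processing they were at least 464.5-fold for Akr1c6 and at least 176-fold for Akr1c20, or 8.86 and 7.46 in log2. The Cy3 channel alone gave smaller differences of 8.36 and 6.99. Akr1d1, the steroid reductase of bile acid synthesis, differed by 3.12 ± 0.28 (adjusted P = 8.36e-10), with livers at 0.55 to 2.99 and 11 measured colons at -2.83 to -0.42. It too was well above background on 12 liver arrays and 1 colon array. In the main processing Akr1d1 was at least 5.80-fold higher in liver, or 2.54 in log2, and median centring gave a smaller difference of 2.27. Akr1c14, a hydroxysteroid dehydrogenase, differed by 1.31 ± 0.15 (adjusted P = 6.28e-08) without overlap, although both tissues were well above background throughout. Akr1c21 was higher in liver in 12 of 12 mice, by 0.94 ± 0.14 (adjusted P = 4.56e-06), and missed the fold threshold under median centring (0.55). Akr1c13 was the member higher in colon, with livers at 0.48 to 1.07 and colons at 1.28 to 1.86, a difference of -0.81 ± 0.08 (adjusted P = 1.196e-09), or -1.24 with the Cy3 channel alone. Akr1c12, on the same chromosome, had livers at 0.42 to 1.53 and colons at 0.55 to 1.60 and was not called (-0.03 ± 0.11). Akr1c19 was measured by 2 bright probes that disagreed. The main probe gave 0.46 ± 0.13, under the fold threshold (0.050 with the Cy3 channel alone), and the other gave -2.0 ± 0.10 (adjusted P = 7.73e-16), with livers at 0.13 to 1.13 and colons at 2.22 to 2.75. The 2 Akr1c19 probes lie at chr13:4123357-4123416 and chr13:4132624-4132683 (mm7), and which of them follows the transcript was not tested.

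The Akr1c genes are close relatives in sequence, so the probes behind the unlike values are shown as the first 30 of their 60 bases, in lower case with no part marked.
Akr1c6 probe: tgaatactaactggaggtccattttgtgcc
Akr1c20 main probe: gaggaccatcctgattttccatttttggat
Akr1c12 probe: agtaagctattggattactgcaagtcaaaa
Akr1c13 probe: aggacatgaaaacactagatggcctgaaca
Akr1c19 main probe: tgcaggattggtcaagtccattggtgtgtc
Akr1c19 other probe: cttcagccagagctgtgtccaccagtccgg
Over the 1634 pairs of probes for different genes of the 3 families, no pair matched at more than 32 of 60 bases without gaps, and the median pair matched at 21. Transcripts of genes outside the list were not compared with the probes.

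Neighbouring genes on a chromosome did not share one difference. The 6 Adh genes lie in a row on chromosome 3 between 138040076 and 138263794 (mm7), and their fitted differences in that order were 0.42 (Adh7), 3.15 (Adh1), 0.27 (Adh6a), 1.10 (Adh6-ps1), 5.94 (Adh4) and 1.39 (Adh5). On chromosome 13, between 3974319 and 4477641, the order Akr1c14, Akr1c18, Akr1c13, Akr1c19, Akr1c12, Akr1c6, Akr1c20, Akr1c21 and Akr1e1 held the extreme pair Akr1c6 and Akr1c20 side by side. The 5 genes before that pair lay between -0.81 and 1.31, and the 2 after it at 0.94 and 0.37. The Akr1b genes on chromosome 6 followed the same uneven picture, with Akr1b3 at -1.06, Akr1b8 at -2.44 and Akr1b7 at 0.48.

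**Figure D3:**
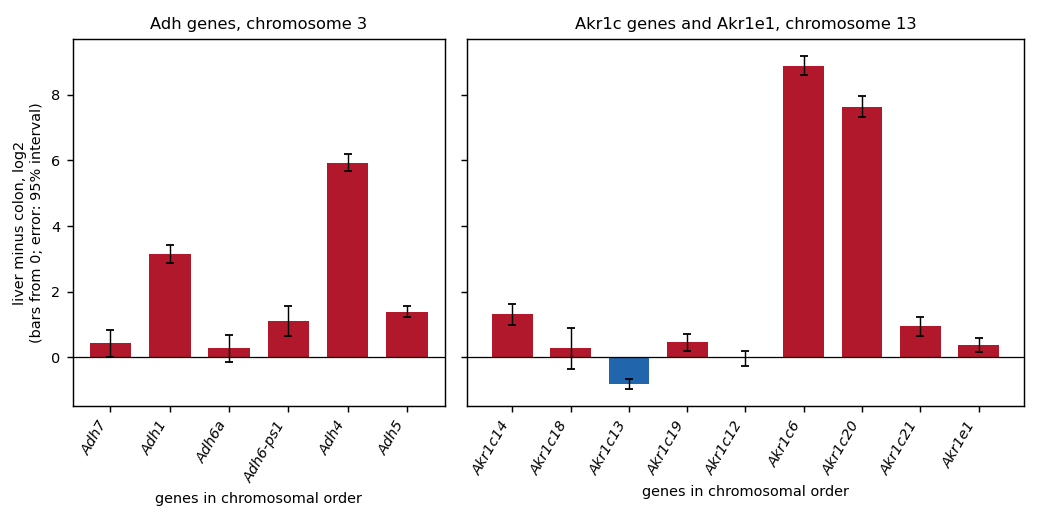
Liver minus colon on the log2 scale (vertical axis, bars drawn from 0, error bars 95% confidence intervals) for the Adh genes of chromosome 3 and the Akr1c genes with Akr1e1 of chromosome 13, in chromosomal order from left to right, not to distance. Adh4 (5.94) and the adjacent Akr1c6 (8.89) and Akr1c20 (7.64) rise above neighbours that lie between -0.81 and 3.15.

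The promoters of Akr1c6, Adh4 and Akr1b8 are shown for their fitted differences in the main processing. Those of Akr1c6 and Adh4 lay furthest towards liver in their clusters, and that of Akr1b8 furthest towards colon of the 41 genes. RefSeq (GRCm38.p6) gave a promoter window for 32 of the 41 genes. The stretches are the 250 bases before the transcription start, 5′ to 3′ on the gene's strand, with capitals marking matches to the motifs searched.
Akr1c6, chr13:4434093-4434342, plus strand: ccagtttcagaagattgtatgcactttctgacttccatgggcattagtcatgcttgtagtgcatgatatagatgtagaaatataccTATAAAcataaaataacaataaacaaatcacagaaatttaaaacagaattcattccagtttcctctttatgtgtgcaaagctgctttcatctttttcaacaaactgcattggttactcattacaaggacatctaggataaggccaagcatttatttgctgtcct
Adh4, chr3:138415247-138415496, plus strand: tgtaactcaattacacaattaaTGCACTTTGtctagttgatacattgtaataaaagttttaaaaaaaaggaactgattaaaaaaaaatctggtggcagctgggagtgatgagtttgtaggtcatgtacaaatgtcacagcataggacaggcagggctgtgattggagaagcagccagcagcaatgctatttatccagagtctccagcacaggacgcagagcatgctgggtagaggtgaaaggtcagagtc
Akr1b8, chr6:34353896-34354145, plus strand: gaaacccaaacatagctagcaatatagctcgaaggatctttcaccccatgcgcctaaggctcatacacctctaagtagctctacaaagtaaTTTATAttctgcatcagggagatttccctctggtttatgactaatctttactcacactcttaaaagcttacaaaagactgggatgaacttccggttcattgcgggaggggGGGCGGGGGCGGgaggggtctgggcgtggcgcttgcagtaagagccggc
The motifs, on both strands, were the TATA box TATAAA, the GC box GGGCGG, the HNF1 motif GTTAAT, the HNF4 motif CAAAGNNCA, the C/EBP motif TTGCNNAA, the AP-1 motif TGANTCA and the antioxidant response element TGACNNNGC, of which the last 2 can overlap. Akr1c6 held 1 TATA box match, Adh4 1 HNF4 match, and Akr1b8 1 TATA box match and 2 adjoining GC boxes. The TATA box matches began 164 bases (Akr1c6) and 159 bases (Akr1b8) before the start. Over the members, a GC box stood in 4 of 17 promoters of genes higher in liver, in 4 of 6 higher in colon and in 2 of 9 not called, against 32.7% of the 32851 promoter windows searched. The HNF4 motif stood in 2 of 17, 0 of 6 and 0 of 9 (5.49% of the windows searched), the HNF1 motif in 2 of 17, 0 of 6 and 0 of 9 (6.43%), and the C/EBP motif in 3 of 17, 0 of 6 and 1 of 9 (9.56%). For the TATA box the counts were 3, 1 and 2 (12.4%), for AP-1 1, 0 and 1 (6.75%) and for the antioxidant response element 1, 1 and 1 (10.2%). These matches are descriptions of letters in a window and not sites of binding.

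Other genes of the same pathways were also counted. Of 31 genes of retinoid handling, 17 were higher in liver, 2 higher in colon and 12 not called, with a median difference of 0.76. Furthest towards liver were the retinol carrier of blood Rbp4 (6.61 ± 0.11), the retinol dehydrogenase Rdh7 (5.68 ± 0.09) and Cyp26a1, which breaks down retinoic acid (3.93 ± 0.20). Towards colon were the retinol-binding Rbp7 (-1.57 ± 0.24) and the retinal reductase Rdh11 (-0.88 ± 0.11), and next came Rdh1 at -0.30 ± 0.13, which was not called. Of 24 other genes of carbonyl and ethanol metabolism, 18 were higher in liver, 3 higher in colon and 3 not called, with a median of 1.65. The glycolate oxidase Hao1 (6.23 ± 0.15), the cortisone reductase Hsd11b1 (5.62 ± 0.16) and the ethanol-oxidising Cyp2e1 (4.35 ± 0.22) led towards liver. The carbonyl reductases Cbr3 (-2.19 ± 0.18) and Cbr2 (-1.13 ± 0.14) and the cortisol-inactivating Hsd11b2 (-2.08 ± 0.22) were higher in colon.

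Akr1b7 and Akr1c18, both known from steroid-making glands, were not called between tissues, and in both 1 liver, that of HF-Low-Suf replicate 1, stood far from the rest. Akr1b7 measured 4.50 there and -1.196 to 0.49 in the other 11 livers, while the colons ran from -1.64 to 0.24. Akr1c18, which inactivates progesterone, measured 0.17 and in the other 11 livers -4.45 to -2.54, against -3.79 to -3.37 in the colons. Both genes thus lay above every other liver and every colon in 1 array. The tissue difference of Akr1b7 was 0.48 ± 0.42 with all mice and -0.04 without HF-Low-Suf replicate 1, and that of Akr1c18 was 0.27 ± 0.30 with all arrays and -0.04 without this liver. Akr1b8 was the next furthest outside the other livers, at -0.25 against -2.60 to -1.05. In total 15 of the 41 genes lay outside the other 11 livers on this array, and between 2 and 13 on each of the others.

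Genes of fat and of steroid synthesis moved with them on that array. The adipose mean over 10 markers was 1.93 in this liver and -1.39 to -0.08 in the other livers. The fat cell genes Adipoq, Plin, Cfd and Fabp4 measured 3.14, 4.20, 3.68 and 2.24, and the other livers reached at most -0.38, -0.05, -0.72 and -0.92. Of the steroid genes, Star measured 1.87, Cyp11a1 0.77 and Hsd3b1 2.83, against at most -0.53, -0.92 and -0.51 in the other livers. The mean over the 10 adrenal cortex markers, a list chosen after the values of Akr1b7 were seen, was 1.03 there and -0.49 to 0.02 in the other livers. Further markers did not stand apart, since Mrap, Fdx1 and Nr5a1 lay within the range of the other livers and Mc2r and Cyp21a1 were not well above background on this array. Their part in the 2 genes' values was not tested.

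**Figure D4:**
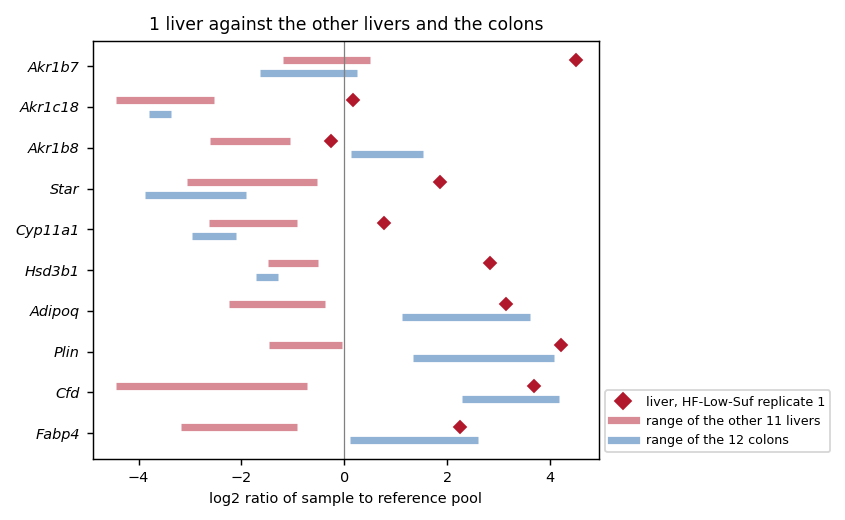
Log2 ratio of sample to reference pool (horizontal axis) of Akr1b7, Akr1c18 and Akr1b8, of 3 steroid synthesis genes (Star, Cyp11a1, Hsd3b1) and of 4 fat cell genes (Adipoq, Plin, Cfd, Fabp4). The diamond is the liver of HF-Low-Suf replicate 1, and the red and blue bars are the ranges of the other 11 livers and the 12 colons. The diamond lies to the right of the red bar for all 10 genes.

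3 genes lay far below the reference pool in both tissues. Akr1c21, known from the kidney, had means of -4.48 in liver and -5.42 in colon, Akr1c18 -3.33 and -3.60, and Adh6a -2.61 and -2.88. The pool is described as RNA of the colon, or intestine, and the liver of all 12 mice. The kidney genes Kap, Umod, Slc34a1 and Slc12a1 reached at most -6.64, -3.56, -3.46 and -2.08 on any array, while Aqp2, the fifth gene of that list, reached -0.02 with a pool balance, the log2 mean of both tissues' ratios, of -0.70. Among probes well above background in the reference on all arrays, 1.5% of 26056 lay below a pool balance of -2, and so did 3 of the 39 members.

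For the diets, the question was whether selenium and folate after weaning altered these transcripts, and a positive value means higher in HF-Low-Suf. For most genes that pass the study's threshold over the whole array, this direction, taken from the dyes, is opposite to the one the study prints. No member passed an unadjusted P below 0.01 with a fold above 1.5 in limma, 0 of 41 in liver and 0 of 41 in colon, against 0.107% and 0.107% of the main probes of all gene names (0.109% and 0.168% of all probes). At an unadjusted P below 0.05 the counts over the members' main probes were also 0 and 0, against 2.01% and 2.62% (2.17% and 2.99% of all probes), and after adjustment 0 of all probes passed in either tissue. By the two-sided exact permutation test over the 924 assignments of mice, 0 members in liver and 2 in colon had an unadjusted p below 0.05, against 2.25% and 2.97% of all gene names. The 6 and 6 mice overlapped for every member in both tissues, and they did not overlap for 0.0250% of all gene names in liver and 0.0644% in colon. In liver 27 genes lay higher with HF-Low-Suf and 14 lower, with a median of 0.08 (14 and 27 with the sign turned), and in colon 20 lay higher and 21 lower, with a median of -0.01.

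In the liver the lowest P values belonged to Akr1b8, Aldh1a2 and Aldh1a3. Akr1b8 measured -2.60 to -1.09 in HF-Low-Low (median -1.64) and -1.98 to -0.25 in HF-Low-Suf (median -1.30), a difference of 0.53 ± 0.30 (SE, limma P = 0.0980, exact permutation p = 0.154, adjusted P = 0.9999). It was 0.33 when the liver that stood apart was left out and 0.11 when the 4 doubted arrays were left out (the livers of HF-Low-Suf replicates 1, 2 and 4 and the colon of replicate 5). The doubted livers were all of HF-Low-Suf, so that this setting set fewer HF-Low-Suf livers against all HF-Low-Low livers. The mean over skeletal muscle markers was -2.53 in the liver of replicate 2 and -4.94 to -3.87 in the other livers. The liver of replicate 4 had means of -3.00 for colon epithelium (others -4.48 to -3.19), -1.70 for smooth muscle (-3.21 to -1.83) and -0.88 for pancreas (-2.22 to -0.97), each the highest of the 12. It was also the highest liver for kidney (-3.19), ovary (-0.07) and adrenal medulla markers (-0.60). Of the liver arrays it had the brightest median spot in Cy5, 12.3 times the background, and the most spots well above background in Cy3, 59.6%. The part of these markers and signals in the diet differences was not tested. For Aldh1a2 the groups ran from -2.32 to -0.65 and from -2.12 to -0.41 (0.53 ± 0.32, exact permutation p = 0.165), and for Aldh1a3 from -1.88 to -0.39 and from -1.55 to -0.28 (0.45 ± 0.30, exact permutation p = 0.203). Without the same 4 arrays the differences of Aldh1a2 and Aldh1a3 came to 0.16 and 0.18. The probe of Aldh1a3 was well above background on no liver array, and that of Aldh1a2 on 5. Of the 17 other probes of members, 2 had an unadjusted P below 0.05 in liver and 0 in colon, both well above background on 0 liver arrays and with overlapping groups. That of Aldh1a3 differed by 0.73 ± 0.27 (P = 0.0173, exact permutation p = 0.0476, adjusted P = 0.9999), and that of Adh6a by -0.37 ± 0.165 (P = 0.043, exact permutation p = 0.0498, adjusted P = 0.9999). Akr1b7 and Akr1c18 had the widest differences in liver, 0.82 ± 0.75 and 0.81 ± 0.61, through the liver described above.

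In the colon the lowest P values belonged to Aldh6a1, Aldh16a1 and Akr1d1. Aldh6a1 measured -2.15 to -1.38 in HF-Low-Low (median -1.89) and -2.57 to -2.05 in HF-Low-Suf (median -2.10), a difference of -0.29 ± 0.15 (P = 0.0773, exact permutation p = 0.0390). The lowest HF-Low-Suf value is that of replicate 5, the doubted colon array. Several marker means of that array lay outside the other colons, among them adipose at 0.62 (others 1.43 to 2.33) and hepatocyte at -4.05 (others -4.485 to -4.18). The part of these markers in the difference was not tested. Aldh16a1 measured 0.07 to 0.52 (median 0.36) and 0.01 to 0.22 (median 0.08), a difference of -0.22 ± 0.12 (P = 0.10, exact permutation p = 0.0303). Under median centring the differences of Aldh6a1 and Aldh16a1 were -0.13 and -0.063, and that of Aldh6a1 was -0.19 without HF-Low-Low replicate 1. Both are under the 1.5-fold threshold, and their groups overlapped. Akr1d1, near background in the colon, differed by -0.46 ± 0.32 (exact permutation p = 0.288, 5 and 6 mice), and by -0.17 without HF-Low-Suf replicate 3.

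The folate enzymes had no diet difference larger than the spread between mice. In liver, Aldh1l1 measured 0.41 to 1.99 in HF-Low-Low (median 1.61) and 0.88 to 1.96 in HF-Low-Suf (median 1.43), a difference of -0.09 (95% interval -0.63 to 0.46, exact permutation p = 0.76). Leaving out each mouse in turn, the liver difference of Aldh1l1 ran from -0.30 (without HF-Low-Low replicate 3, whose liver was the lowest) to 0.016 (without HF-Low-Suf replicate 3). In colon it measured -3.37 to -2.40 and -3.85 to -2.67, a difference of -0.13 (-0.55 to 0.30, exact permutation p = 0.584), and from -0.22 to 0.015 with each mouse left out (the highest without HF-Low-Suf replicate 2). For Aldh1l2, which was not above background, the differences were 0.22 in liver (exact permutation p = 0.617) and -0.11 in colon (0.706), with ranges of 0.025 to 0.44 and -0.26 to 0.075 when each mouse was left out. Across all 41 genes the 95% interval lay within 2-fold either way for 31 in liver and 40 in colon, and within 1.5-fold for 19 and 28; for the other genes the interval did not exclude a change of that size.

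**Figure D5:**
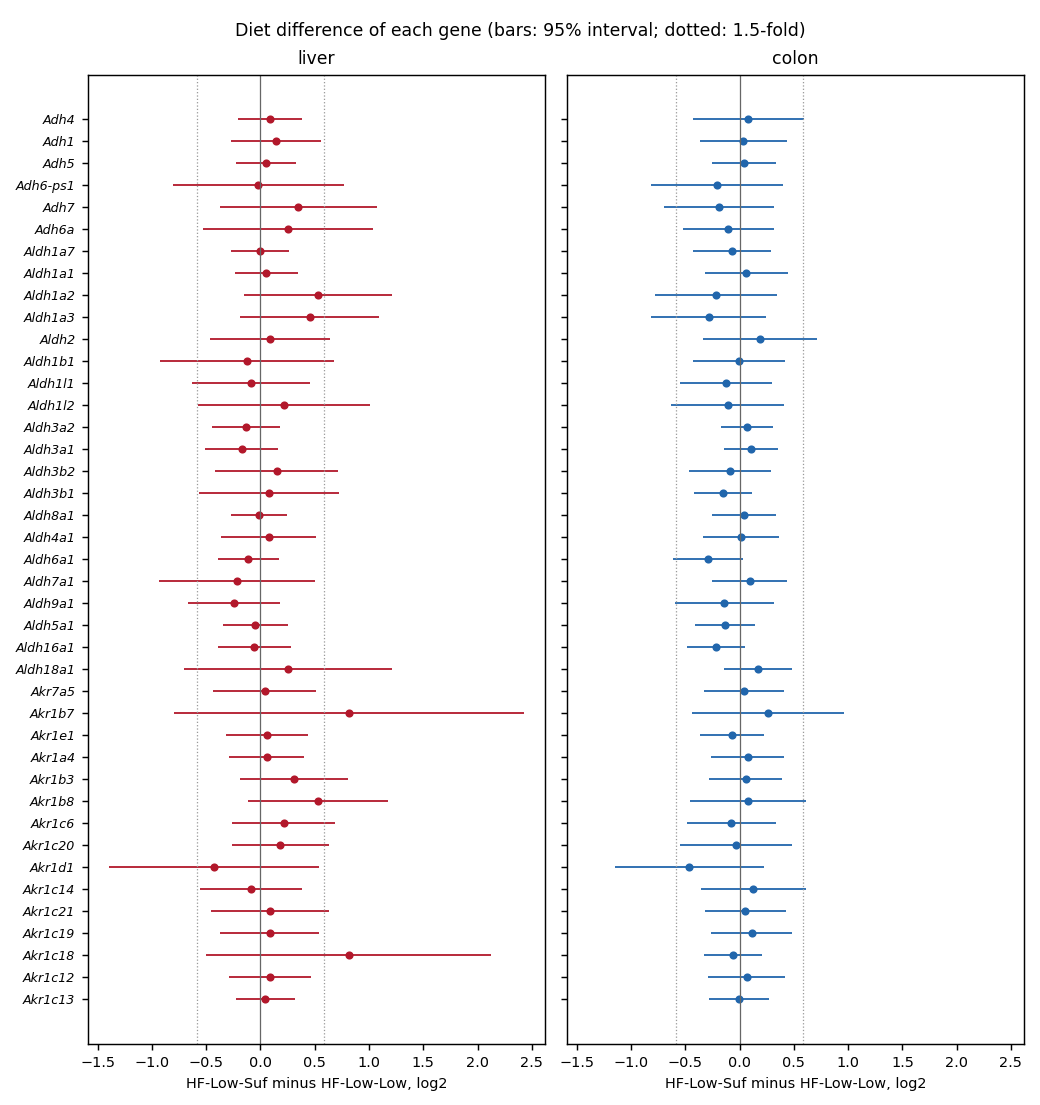
HF-Low-Suf minus HF-Low-Low on the log2 scale (horizontal axis) for each of the 41 genes in liver (left) and colon (right), with 95% confidence intervals as bars and dotted lines at 1.5-fold either way. Every interval includes 0, and the longest are those of Akr1b7 and Akr1c18 in liver.

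No member passed an adjusted P below 0.05 for a diet difference that differed between tissues (0 of 41, against 0 of all probes), nor at an unadjusted P below 0.05 (0 of 41 main probes, against 6.03% of those of all gene names and 6.41% of all probes). The lowest P of a main probe was that of Aldh1a3, at 0.0549 (adjusted P = 0.777), where liver minus colon differences of the diet effect came to 0.74 ± 0.37. Of the 17 other probes, 2 had an unadjusted P below 0.05, that of Adh6a (-0.60, limma adjusted P = 0.553) and that of Akr1e1 (-1.02, limma adjusted P = 0.648), and these were well above background on 0 and 4 of the 24 arrays. All genes called between tissues kept their direction within each diet and each scan day. The differences were 8.74 in HF-Low-Low and 9.03 in HF-Low-Suf for Akr1c6, 4.51 and 4.55 for Aldh1l1, -2.67 and -2.21 for Akr1b8, and -1.23 and -0.48 for Aldh1a2. For the first 3 of these genes, within the 3 slides scanned on one day and the 3 scanned on the other, they were 8.60 and 9.18, 4.45 and 4.61, and -2.14 and -2.74.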

How the data were processed

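Colon and liver RNA of 12 mice was measured on 24 two-colour arrays, 4 to a slide on 6 slides, with 1 array of each group on every slide, and samples were grouped by the labels. The authors deposited 1 scanner file per array, quantified by Feature Extraction 9.5. The intensity values used, as deposited, are the mean spot signal and median local background in Cy3 (sample) and Cy5 (reference pool), not background corrected or normalized. The deposited files also hold intensity values processed by that software, used as an alternative, and other columns with flags for outlier, saturated and well-above-background spots. The study's methods name global loess, limma and a threshold of unadjusted P below 0.01 with fold above 1.5.

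Here signals were corrected by normexp (offset 50), 1639 control spots of 45018 and outlier spots were left out, and loess normalization within arrays in limma 3.58.1 (R 4.3.3) gave 41174 probes. The tissue comparison fitted all 24 arrays, taking the mouse for a random block (correlation 0.158, statmod 1.5.0), Benjamini-Hochberg adjusted P below 0.05 over all probes and fold above 1.5. The diet comparison used the 12 arrays of a tissue without a block, and the difference between tissues an interaction contrast. For probes well above background on 0 or 1 array of a tissue the fold is given as a bound, against the lowest signal well above background, beside the adjusted P of the fit. The bound holds for the main processing, and some alternatives gave smaller differences. Scripts were tested on simulated data. Correlations of log2 ratios between replicates of a group were 0.655 to 0.938. The number of arrays limits the precision.

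Named between tissues were members well above background on at least 6 arrays of a tissue, and between diets the 3 of lowest P in each tissue, any with P below 0.05, Aldh1l1 and Aldh1l2. Adh6-ps1, Adh7, Aldh3a1 and Aldh1l2 fall outside the rule for tissues and were named, after their values were seen, to account for every member. The members, gene lists and alternatives were chosen with earlier results of these data known. Probe positions are those of the files (mm7). Same-numbered samples of the 2 diets are not from 1 animal, and their residuals correlated above 0.1 in 2 of 6 pairs in liver (-0.50 to 0.53) and 3 of 6 in colon (-0.09 to 0.24). Of the 41 genes, 36 matched a current RefSeq symbol by accession. Alternatives were other background corrections, normalizations and filters, the blocks, scan day, leaving out each mouse, 4 HF-Low-Suf arrays doubted in earlier results, and, chosen after seeing the data, the liver of HF-Low-Suf replicate 1.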

Additional observations from a re-analysis of the deposited data

Results flagged for a closer look

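Of 162 groups of 6 arrays tested for a sample far from the others, 13 were marked, where chance alone would mark about 1 in 20, or 8.1. The furthest was Akr1b7 in HF-Low-Suf replicate 1, whose liver lay at a log2 ratio of 4.50 against -1.20 to -0.19 in the other 5 livers of its group, and Aldh1a1 was low in the same liver, at 0.74 against 1.13 to 1.34. In the livers of HF-Low-Low, replicate 2 measured 0.49 for Akr1b7 (others at most -0.54) and -1.02 for Akr1c14 (others at least -0.31). Replicate 3 of that group measured 0.41 for Aldh1l1 (others at least 1.47) and -0.59 for Akr7a5 (others at least 0.54). Single livers of HF-Low-Suf stood at 2.16 for Adh4 (replicate 5, others at most 1.71) and 1.19 for Aldh6a1 (replicate 4, others at most 0.90).

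In the colon, HF-Low-Suf replicate 5 stood at -2.57 for Aldh6a1 (others at least -2.18) and -2.92 for Aldh8a1 (others at most -3.27), and replicate 2 at -1.72 for Aldh2 (others at least -0.51). HF-Low-Low replicate 1 stood at -1.38 for Aldh6a1 (others at most -1.87) and replicate 6 at -0.20 for Akr7a5 (others at most -0.75). The colon array of HF-Low-Suf replicate 5 had the highest share of spots well above background in Cy3, 71.9%.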

How the results depend on the processing

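The counts of members kept within 1.5 times under every alternative run. Genes higher in liver numbered 20 to 21 and higher in colon 8 to 9, except for 20 and 6 at a fold above 2 and 26 and 12 when every probe was counted. Leaving out each mouse gave 21 and 8 to 9. With the mouse as a fixed block, or with no block, they were 21 and 9, and the diet counts with the replicate number as a block were 0 and 0; the block changed no call. The diet and interaction counts were 0 throughout. Median centring moved the share of all called probes that were higher in liver from 48.3% to 29.2%, and that of called members from 70.0% to 69.0%, and the processed signals shifted the median of all probes from 0.02 to -0.19.

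Of single genes, those whose sign changed were not called in the main setting. Adh6a gave -0.0623 under plain subtraction, -0.016 without background correction, -0.39 with the processed signals, -0.17 under median centring and -0.091 in the Cy3 channel alone. Akr1c18 gave -0.041 under plain subtraction, -0.19 with the processed signals, -0.17 under median centring, -0.16 without the 4 doubted arrays and -0.039 without the liver of HF-Low-Suf replicate 1. With the processed signals Aldh1l2 gave 0.21 and Aldh3a1 -0.40 (-0.034 without HF-Low-Suf replicate 6), and the colon diet differences of Akr1d1 and Aldh1l2 were 0.019 and 0.16. Akr1c12 gave 0.022 without HF-Low-Low replicate 1, and 0.031 when only the liver of HF-Low-Suf replicate 1 was dropped. Akr1e1 gave -0.025 under median centring, and Akr1b7 -0.039 without HF-Low-Suf replicate 1 (up to 0.69 without another mouse) and -0.055 without the doubted arrays. The causes were not tested. Signals near background in 1 tissue limit the folds of Adh4, Akr1c6, Akr1c20 and Akr1d1, whose differences ran from 5.30 to 7.82, 8.36 to 10.3, 6.99 to 9.56 and 2.27 to 5.39 over the alternatives. The processed signals also moved the fitted differences of Aldh1a3 from -1.78 to -3.295, Aldh18a1 from -1.52 to -3.04, Aldh1a2 from -0.86 to -1.78, Aldh3b2 from -0.65 to -1.38, Aldh7a1 from 2.47 to 3.54 and Adh6-ps1 from 1.10 to 1.95, and the liver diet differences of Aldh1a2 and Aldh1a3 to 0.98 and 0.78. The median over the members was 0.55 under median centring, 0.70 without background correction and 0.47 over every member probe.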
